A study of Mus musculus with 32 samples.

Results

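Of the 34453 genes in the count table, 8 genes of sterol and fatty acid synthesis were examined in the RPE of *rd1* mice with and without overexpression of Nrf2. The rule is a list of names with no threshold on a measured value, drawn up with earlier results of these data known, and it holds *Srebf1* (ENSMUSG00000020538), *Srebf2* (ENSMUSG00000022463), *Insig1* (ENSMUSG00000045294), *Hmgcs1* (ENSMUSG00000093930), *Sqle* (ENSMUSG00000022351), *Fasn* (ENSMUSG00000025153), *Scd1* (ENSMUSG00000037071), and *Scd2* (ENSMUSG00000025203). The 16 mice were labelled *rd1*, a strain in which rods die because Pde6b is lost, with RNA collected from 7 mice aged P20 and 9 aged P40. Subretinal injection delivered AAV-Best1-Nrf2, in which the Best1 promoter drives human *NFE2L2* in the RPE, along with AAV-Best1-GFP to the eye here termed the Nrf2 eye. The contralateral, or control, eye was given only AAV-Best1-GFP, so all 32 libraries came from injected eyes that express GFP. RNA was taken from the eyecup after the retina had been removed, and it was amplified before sequencing. Libraries of the same number and age were taken as the eyes of the same mouse, which the labels do not state. The number of *rd1* pairs named in the methods is smaller than the number labelled, and the methods also include CD1 (WT) pairs at P40, so the strain at P40 rests on the labels.

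Lipid synthesis is controlled by the SREBP transcription factors. *Srebf2* encodes SREBP-2, which mainly activates genes of cholesterol synthesis and uptake, and *Srebf1* encodes SREBP-1, which mainly activates genes of fatty acid synthesis. When sterols are plentiful, the ER protein encoded by *Insig1* holds the SREBPs back in the ER, and *Insig1* is itself an SREBP target. *Hmgcs1* makes HMG-CoA at the start of the mevalonate pathway, and *Sqle* oxidizes squalene further along it. *Fasn* builds saturated fatty acids, into which the stearoyl-CoA desaturases *Scd1* and *Scd2* then introduce a double bond. The RPE handles large amounts of lipid, since it takes up the membranes that photoreceptors shed.

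Sequences before the transcription start are shown for 3 of the 8 genes, as examples of regulatory regions of these pathways, and for *Acss2*, a gene of the same pathways that was higher in Nrf2 eyes at P40. RefSeq windows on GRCm38.p6 were matched for 5 of the 8 genes, namely *Hmgcs1*, *Insig1*, *Srebf1*, *Srebf2*, and *Fasn*. Each line runs 5′ to 3′ along the gene, starts 250 bases before the RefSeq start, and ends at that start or, for *Insig1* and *Acss2*, at the earlier start of the GENCODE gene. They lie at chr13:119690101-119690350 (plus strand), chr5:28071162-28071362 (plus strand), chr11:120824548-120824797 (minus strand), and chr2:155517793-155517947 (plus strand). Capitals mark matches, on either strand, to a sterol regulatory element (TCACNCCAC), which SREBPs bind. They also mark the palindromic E-box (CACGTG), and the core of an antioxidant response element (TGACNNNGC), the kind of site that Nrf2 binds. The remaining capitals are CCAAT boxes.
Hmgcs1: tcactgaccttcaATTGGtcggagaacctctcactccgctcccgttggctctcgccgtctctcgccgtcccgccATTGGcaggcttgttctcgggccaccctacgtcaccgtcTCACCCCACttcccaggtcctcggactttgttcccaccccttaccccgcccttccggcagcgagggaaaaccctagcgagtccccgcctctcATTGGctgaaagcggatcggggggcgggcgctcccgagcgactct
Insig1: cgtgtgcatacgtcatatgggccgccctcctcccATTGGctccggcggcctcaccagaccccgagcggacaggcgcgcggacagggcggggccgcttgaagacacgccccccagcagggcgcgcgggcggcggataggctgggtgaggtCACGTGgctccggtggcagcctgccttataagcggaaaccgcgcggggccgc
Fasn: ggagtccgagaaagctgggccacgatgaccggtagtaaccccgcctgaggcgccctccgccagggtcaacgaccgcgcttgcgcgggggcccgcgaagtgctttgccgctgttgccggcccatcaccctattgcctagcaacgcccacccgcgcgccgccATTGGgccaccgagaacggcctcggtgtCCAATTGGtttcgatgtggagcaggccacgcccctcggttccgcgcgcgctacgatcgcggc
Acss2: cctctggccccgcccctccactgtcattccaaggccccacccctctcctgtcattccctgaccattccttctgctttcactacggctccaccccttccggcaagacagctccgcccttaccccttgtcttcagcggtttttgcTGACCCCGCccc

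The sterol regulatory element was matched in *Hmgcs1*, from −137 to −129 relative to the RefSeq start, and in 1.24% of 32817 windows of the same length (250 bases before to 50 after the start). The E-box in *Insig1* began at −101, and 7.15% of all windows held one. *Acss2* held the core of the antioxidant response element from −107 to −99, as did 12.4% of all windows. No window of the 5 members held it, nor did those of *Lpin1*, *Elovl1*, and *Elovl2*, other genes called below. CCAAT boxes, present in 37.4% of all windows, were matched in all 5 members, with 3 in *Fasn*, of which 2 overlap. These matches describe the letters of the windows only.

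At P20, the total of estimated counts per library was 16548332 to 50542797 in Nrf2 eyes and 23756954 to 41463426 in control eyes, and at P40 it was 32422410 to 49147448 and 17721493 to 43412270. The transgene stood at 1082 to 9506 CPM (the count of a gene relative to the TMM-scaled total of its library) in Nrf2 eyes at P20 and at 3205 to 10438 at P40, against 0.924 to 1098 and 0 to 99.2 in control eyes. The library labelled control of P20 mouse 3 (1098 CPM of the transgene) and that of P20 mouse 4 labelled Nrf2 (1082 CPM) differed from each other by only 8.41 times the sampling noise, where the next closest of 496 pairs of libraries differed by 54.3 times. Without P20 mice 3 and 4, tests that include P20 were fitted again, and their values are given below where a call was lost or the Nrf2 effect or age change of one of the 8 genes moved by over 1.5 times. The order of levels was not recomputed without them. The RPE markers were high in all groups as a sum, but the gene *Best1*, which is among them, was low in each group. Medians of their summed CPM were 23232 in Nrf2 and 22980 in control eyes at P20, and 21592 and 39569 at P40. Of 12 markers, 1 passed as lower in Nrf2 eyes at P20, 5 at P40, and none as higher. Of their log2 fold changes, 6 were negative at P20 (median −0.08) and 9 at P40 (median −0.60). Single medians went both ways at P20, as *Rpe65* had 225 CPM in Nrf2 and 1065 in control eyes and *Ttr* had 8635 and 3106. Markers of photoreceptors were present, and each rod and cone marker tested had a negative log2 fold change with Nrf2. At P20, 0 of 8 rod and 2 of 8 cone markers passed as lower, and at P40 2 of 7 and 8 of 8 did. The summed CPM of 8 rod genes had medians of 10.7 in Nrf2 and 105 in control eyes at P20, and 14.4 and 166 at P40. At P20, the summed CPM of 8 cone genes had a median of 31.2 in Nrf2 eyes (up to 94.9) and 309 in control eyes (up to 931). At P40, it had a median of 48.7 in Nrf2 eyes (up to 307) and 788 in control eyes (up to 2106).

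The 8 genes were detected in every library. In control eyes at P20, their order by mean CPM per kilobase of exon was *Scd2* (116 ± 22.8 SD, n = 7), *Insig1* (74.6 ± 13.7), *Hmgcs1* (47.1 ± 11.8), *Sqle* (36.7 ± 8.64), *Srebf1* (27.5 ± 5.03), *Srebf2* (24.5 ± 3.47), *Fasn* (7.95 ± 2.28), and *Scd1* (3.83 ± 2.19). Thus the 2 desaturases stood at opposite ends of the order. The neighbours *Sqle* and *Srebf1*, and *Srebf1* and *Srebf2*, were in this order in 5 of 7 eyes, and *Fasn* was above *Scd1* in 6 of 7, while the other neighbours kept their order in all 7. In control eyes at P40, *Srebf1* (34.3 ± 12.8, n = 9) came before *Hmgcs1* (31.01 ± 10.8), though only in 5 of 9 eyes, and the remaining genes kept their order of means, from *Scd2* (76.7 ± 39.7) to *Scd1* (2.79 ± 0.77).

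Both desaturases were higher in Nrf2 eyes at P20. Of the 8 genes, 2 rose and none fell at an adjusted *P* value under 0.05 in the quasi-likelihood test of edgeR, blocked by mouse, where 3.41% of the 16303 genes tested passed. At P40, *Scd1* alone passed, where 4.57% of 16686 genes did. The median log2 fold change of the 8 genes was 0.09 at P20 and −0.02 at P40, beside −0.04 and −0.03 for all genes tested. The remaining 6 genes, among them both SREBP genes and both sterol enzymes, did not pass the test at either age. In bulk RNA, a change in the number of cells of a type and a change of RNA per cell cannot be told apart.

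**Figure D1:**
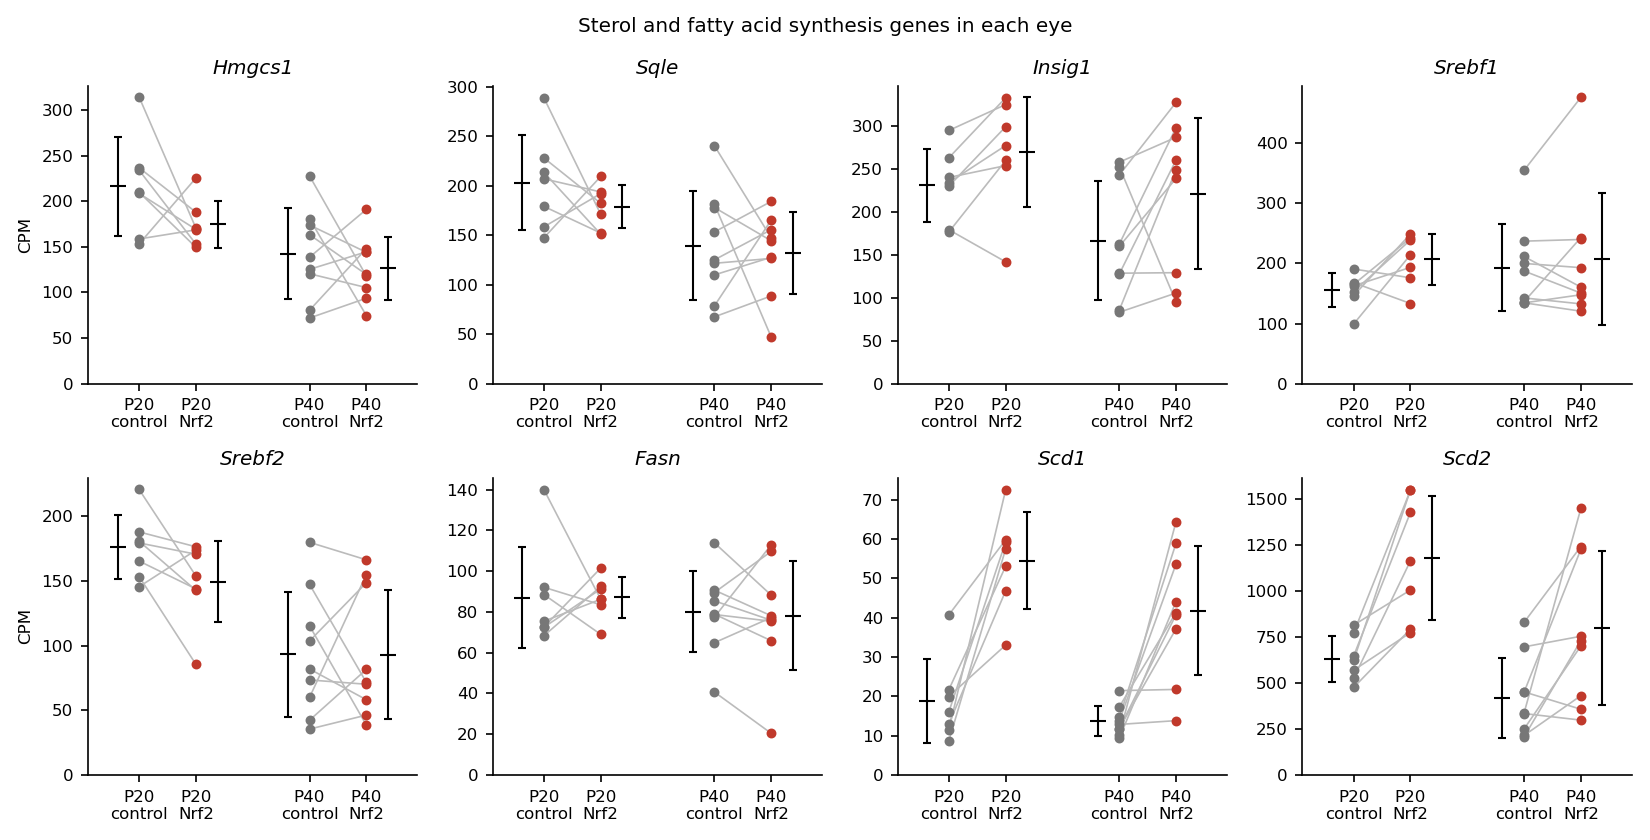
Level of each of the 8 genes in every eye, in CPM. Points are eyes (gray, control; red, Nrf2), gray lines join the eyes of a mouse, and black marks are the mean ± SD of 7 mice at P20 or 9 mice at P40. *Scd1* was higher in the Nrf2 eye of all 7 and all 9 mice.

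*Scd1*, which lies on chromosome 19 from 44394455 to 44407879 on the minus strand (GRCm38), had the larger change. At P20, control eyes ranged from 8.61 to 40.7 CPM with a median of 15.99, and Nrf2 eyes from 33.0 to 72.4 CPM with a median of 57.4. The Nrf2 eye was the higher one in 7 of 7 mice, and the groups overlapped only through the library labelled control of mouse 3 (40.7 CPM), since the next highest control eye had 21.7 CPM. The log2 fold change was 1.64 ± 0.30 (SE), or 3.11-fold, with an adjusted *P* of 0.0257. Without mice 3 and 4 it was 1.80 with an adjusted *P* of 0.0354. The call did not outlast every omission of 1 mouse, as the adjusted *P* was 0.0788 without mouse 1, 0.0551 without mouse 2, 0.0562 without mouse 6, and 0.0967 without mouse 7, with log2 fold changes of 1.47 to 1.84 over all 7 omissions.

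At P40, *Scd1* ranged from 9.32 to 21.4 CPM in control eyes (median 12.9) and from 13.8 to 64.4 CPM in Nrf2 eyes (median 41.3). All 9 mice were higher in the Nrf2 eye, but in mouse 6 (21.4 and 21.8 CPM) and mouse 8 (12.9 and 13.8 CPM) the eyes hardly differed, and in the other 7 mice the log2 difference was 1.25 to 2.66. The log2 fold change was 1.502 ± 0.28, or 2.83-fold, with an adjusted *P* of 0.00827, and it passed the threshold without any 1 mouse (adjusted *P* from 0.00206 to 0.0295). The Nrf2 eyes of mice 6 and 8 held 5117 and 3205 CPM of the transgene, while mouse 1, with 4156 CPM, had a log2 difference of 1.25. The part of the transgene level in these differences was not tested.

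*Scd2*, which lies nearby on chromosome 19 from 44293674 to 44306864 on the plus strand, is the abundant desaturase of these libraries. At P20, it ranged from 476 to 815 CPM in control eyes (median 623) and from 774 to 1549 CPM in Nrf2 eyes (median 1164). The Nrf2 eye was higher in 7 of 7 mice by log2 differences of 0.30 to 1.32, and the groups overlapped. The log2 fold change was 0.84 ± 0.16, or 1.79-fold, with an adjusted *P* of 0.0291. This call was lost without mice 3 and 4 (0.81, adjusted *P* of 0.0809), and also without any 1 of mouse 1 (0.105), mouse 3 (0.103), mouse 5 (0.0929), or mouse 7 (0.117), given as adjusted *P* values. The fold change stayed between 0.77 and 0.95 on the log2 scale over the 7 omissions.

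At P40, *Scd2* ranged from 207 to 830 CPM in control eyes (median 337) and from 298 to 1449 CPM in Nrf2 eyes (median 731). In 7 of 9 mice the Nrf2 eye had more, and the exceptions were again mice 6 and 8, with log2 differences of −0.34 and −0.16. The log2 fold change of 0.86 ± 0.28 was of the same size as at P20, but it did not pass the threshold (adjusted *P* = 0.142) in edgeR, whereas it did in DESeq2 (adjusted *P* = 0.0232) and in limma voom with quality weights (adjusted *P* = 0.00975). The interval of the difference between the ages, on the log2 scale, was −0.67 to 0.72 for *Scd2* and −0.97 to 0.71 for *Scd1*.

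The desaturases are similar in sequence, so reads could be shared between them. Of the 31-base words of the *Scd1* transcripts, 5.18% also occur in *Scd2* and 5.84% in *Scd3*, and of those of *Scd2*, 4.63% occur in *Scd1*. *Scd3*, a near relative in the same cluster, was low (mean of 1.91 CPM in Nrf2 and 0.994 in control eyes at P20) and passed neither at P20 (log2 fold change 1.19 ± 0.51, adjusted *P* = 0.266) nor at P40 (0.78 ± 0.36, adjusted *P* = 0.399).

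*Scd1* is also strongly expressed in fat, and *Scd2* in myelinating glia. The summed CPM of 8 adipocyte markers was 7.64 to 60.2 in Nrf2 eyes and 12.96 to 46.7 in control eyes at P20, and 9.52 to 75.7 and 7.56 to 78.3 at P40, with medians of 25.3, 25.7, 22.97, and 25.3. Of these markers, 3 at P20 and 4 at P40 were high enough to be tested and none passed. Within the list, *Adipoq* was at 0.514 CPM or less in every eye, whereas *Car3* had group medians of 13.3 to 17.9 CPM and reached 72.6 and *Plin4* had group medians of 3.198 to 7.63. The summed CPM of 8 markers of Schwann cells and oligodendrocytes had medians of 335 and 372 in Nrf2 and control eyes at P20 and 303 and 364 at P40, and none of the 6 tested at each age passed. It was highest in the library labelled control of P20 mouse 3 (3111 CPM), in the library labelled Nrf2 of P20 mouse 4 (2998), and in the Nrf2 eye of P20 mouse 2 (1961). *Scd2* in these 3 libraries was 772, 793, and 774 CPM. The first stood between 647 and 815 CPM, near the top of the control eyes at P20, and the others were the lowest of the Nrf2 eyes. Of 8 macrophage markers, 7 had positive log2 fold changes with Nrf2 at P20 (median 1.08), where none passed. At P40, 6 did (median 1.00), and 3 passed as higher. Their summed CPM had medians of 127 in Nrf2 and 222 in control eyes at P20, and 213 and 155 at P40. Of 7 fibroblast markers, 6 were positive at P20 and 7 at P40, where 1 passed as higher. The part of fat, glia, macrophages, or fibroblasts in the desaturase levels was not tested.

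Among the regulators, *Srebf1* ranged at P20 from 99.1 to 191 CPM in control eyes (median 163) and from 133 to 249.1 CPM in Nrf2 eyes (median 214). In 5 of 7 mice the Nrf2 eye had more, the groups overlapped, and 0.38 ± 0.17 as the log2 fold change failed the test (adjusted *P* = 0.284), although limma voom with quality weights called it (0.59, adjusted *P* = 0.0198). At P40, the medians were 187 CPM in control eyes and 161 CPM in Nrf2 eyes, and the log2 fold change was 0.00 ± 0.15. Both eyes of P40 mouse 3 were far above the rest, with 355 CPM in the control eye and 477 CPM in the Nrf2 eye.

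*Srebf2* ranged at P20 from 145 to 220 CPM in control eyes (median 179) and from 85.4 to 176 CPM in Nrf2 eyes (median 154). Only 1 of 7 mice had more in the Nrf2 eye, but −0.29 ± 0.14 as the log2 fold change failed the test (adjusted *P* = 0.330). Without mice 3 and 4 it was −0.46 (adjusted *P* = 0.126). At P40, the log2 fold change was −0.04 ± 0.28, and the difference within a mouse ran from −1.58 to 1.37. *Insig1* differed by 0.17 ± 0.13 (log2) at P20 (adjusted *P* = 0.529; 0.045 and 0.912 without mice 3 and 4), with the Nrf2 eye higher in 6 of 7 mice, and of 0.37 ± 0.25 at P40 (adjusted *P* = 0.651), with the Nrf2 eye higher in 8 of 9. The exceptions were mouse 2 at P20 (141.5 CPM in the Nrf2 eye) and mouse 6 at P40, in which the difference was −1.41.

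Neither sterol enzyme passed the test. *Hmgcs1* ranged at P20 from 153 to 314 CPM in control eyes (median 209.9) and from 149 to 225 CPM in Nrf2 eyes (median 169), with a log2 fold change of −0.32 ± 0.18 (adjusted *P* = 0.387) and 2 of 7 mice higher in the Nrf2 eye. Without mice 3 and 4 it was −0.50 (adjusted *P* = 0.122). At P40, it was −0.17 ± 0.22 (adjusted *P* = 0.861), with 4 of 9 mice higher. *Sqle* ranged at P20 from 147 to 289 CPM in control eyes (median 207) and from 151 to 210 CPM in Nrf2 eyes (median 182), with a log2 fold change of −0.19 ± 0.17 (adjusted *P* = 0.569), and of −0.37 without mice 3 and 4 (adjusted *P* = 0.253). At P40, it was −0.09 ± 0.26 (adjusted *P* = 0.954), and the difference within a mouse ran from −1.95 in mouse 6 to 1.07 in mouse 5. Approximate 95% intervals of the log2 fold change of *Hmgcs1* were −0.67 to 0.03 at P20 and −0.60 to 0.25 at P40. For *Sqle*, they were −0.52 to 0.13 and −0.59 to 0.41.

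*Fasn*, which makes saturated fatty acids upstream of the desaturases, did not pass either. It ranged at P20 from 68.3 to 139.9 CPM in control eyes (median 75.4) and from 68.9 to 101 CPM in Nrf2 eyes (median 86.2). The log2 fold change was 0.00 ± 0.16 at P20 (approximate 95% interval −0.31 to 0.31, adjusted *P* = 0.993). At P40, it was −0.15 ± 0.16 (−0.46 to 0.17, adjusted *P* = 0.836). Without mice 3 and 4 at P20 it was −0.14 (adjusted *P* = 0.731). The Nrf2 eye was higher in 4 of 7 and 3 of 9 mice.

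**Figure D2:**
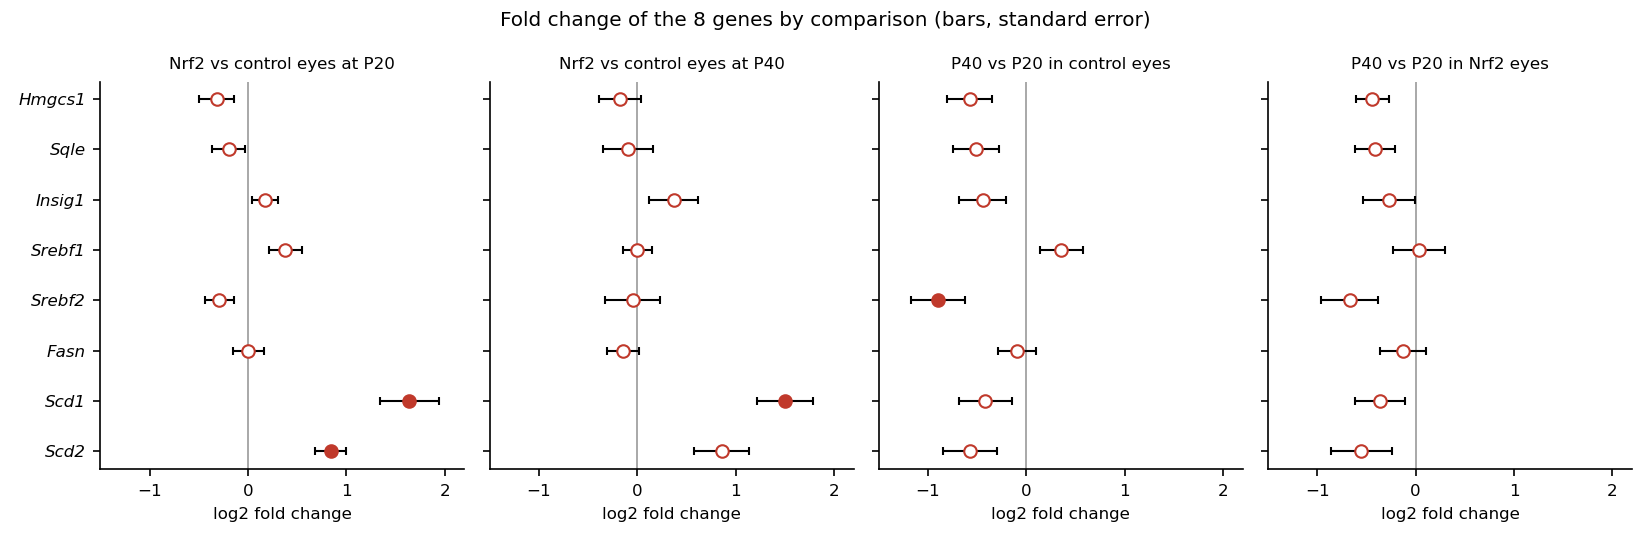
Log2 fold change of the 8 genes in 4 comparisons, with the standard error as bars. Filled circles passed an adjusted *P* value of 0.05 in edgeR: *Scd1* and *Scd2* with Nrf2 at P20, *Scd1* with Nrf2 at P40, and *Srebf2* between the ages in control eyes.

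The other genes of the pathways were described from 4 lists. Of 21 genes of sterol synthesis none passed the edgeR test at P20 or at P40, with 2 at each age at an unadjusted *P* under 0.05, as had 2964 of all 16303 genes at P20 and 2173 of 16686 at P40. DESeq2 called none at P20 and *Fdft1* at P40, and limma voom called *Ebp* at P20 and *Fdft1* at P40, all as lower. At P20, 15 of the 21 log2 fold changes were negative (median −0.19), and at P40 16 were (median −0.09). *Fdft1*, which makes squalene and was singled out after its values were seen, had −0.38 ± 0.14 (adjusted *P* = 0.186) and −0.57 ± 0.15 (adjusted *P* = 0.0507) and was lower in the Nrf2 eye of 8 of 9 mice at P40.

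Of 24 genes of fatty acid synthesis and desaturation, 23 were tested, and the medians of their log2 fold changes were 0.01 at P20 and −0.07 at P40. At P20, 3 rose in edgeR, *Scd1*, *Scd2*, and *Lpin1*, where 3.41% of all 16303 genes passed. At P40, 3 rose, *Scd1*, *Acss2*, and *Lpin1*, and 2 fell, *Elovl1* and *Elovl2*, where 4.57% of 16686 did. DESeq2 and limma voom also called *Tecr* as higher and *Elovl2* as lower at P20, and limma voom *Acly* as lower. At P40, both also called *Scd2* as higher and *Elovl6* as lower. DESeq2 called 1951 of all genes at P20 and 1380 at P40, and limma voom 2605 and 1327. The carboxylase gene *Acaca*, which makes the malonyl-CoA for *Fasn*, had log2 fold changes of −0.12 ± 0.17 and −0.19 ± 0.18, and *Acly*, which makes cytosolic acetyl-CoA from citrate, had −0.26 ± 0.13 and 0.03 ± 0.24. Neither passed the edgeR test, with adjusted *P* values of 0.748 and 0.788 for *Acaca* and 0.326 and 0.987 for *Acly*.

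**Figure D3:**
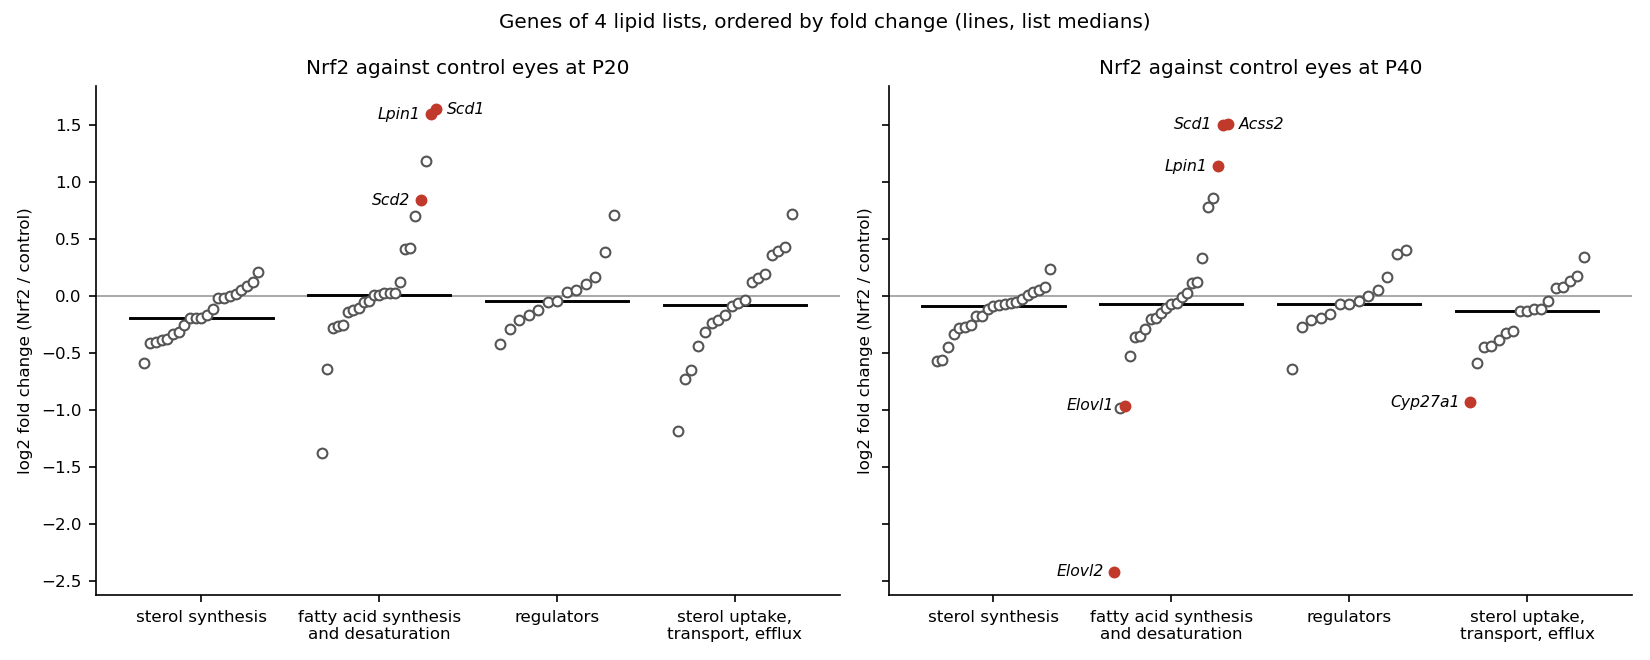
Log2 fold change between Nrf2 and control eyes of the tested genes of 4 lists at P20 (left) and P40 (right), each list ordered by fold change. Red points, named, passed an adjusted *P* value of 0.05 in edgeR, open points did not, and black lines are the list medians, which lie between −0.19 and 0.01.

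*Acss2* makes cytosolic acetyl-CoA from acetate. At P40, it ranged from 7.28 to 31.6 CPM in control eyes (median 17.3) and from 21.9 to 83.2 CPM in Nrf2 eyes (median 65.2). The Nrf2 eye was higher in 8 of 9 mice, the exception being mouse 6, and the log2 fold change was 1.51 ± 0.26 (adjusted *P* = 0.00517). At P20, 6 of 7 mice were higher, with a log2 fold change of 0.70 ± 0.26 that did not pass (adjusted *P* = 0.209).

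*Lpin1* encodes a phosphatidate phosphatase of glycerolipid synthesis. At P20, it ranged from 8.07 to 27.1 CPM in control eyes (median 16.1) and from 22.3 to 77.3 CPM in Nrf2 eyes (median 50.3), and the only mouse with less in the Nrf2 eye was mouse 4. The log2 fold change was 1.60 ± 0.30 (adjusted *P* = 0.0290), and 1.94 without mice 3 and 4 (adjusted *P* = 0.00638). Of the 7 omissions of 1 mouse, only that of mouse 4 kept the call, and the adjusted *P* reached 0.110. At P40, *Lpin1* was higher in all 9 Nrf2 eyes, with a log2 fold change of 1.14 ± 0.23 (adjusted *P* = 0.0131), a call that was lost without the mouse block (1.05, adjusted *P* = 0.0951).

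Of the elongases, *Elovl1* and *Elovl2* fell at P40. *Elovl2*, which lengthens polyunsaturated fatty acids, ranged from 1.52 to 82.1 CPM in control eyes (median 11.1) and from 0.813 to 6.87 CPM in Nrf2 eyes (median 4.01), and it was lower in the Nrf2 eye of 9 of 9 mice (−2.42 ± 0.33, adjusted *P* = 0.000917). *Elovl1*, which lengthens saturated and monounsaturated acyl chains, ranged from 217 to 396 CPM in control eyes (median 285) and from 130 to 228 CPM in Nrf2 eyes (median 153), and it was lower in 8 of 9 (−0.96 ± 0.17, adjusted *P* = 0.00559). At P20, *Elovl2* had −1.38 ± 0.39 (adjusted *P* = 0.101) and *Elovl1* had −0.10 ± 0.22 (adjusted *P* = 0.841) in edgeR, while DESeq2 and limma voom both called *Elovl2* as lower. The 8 cone markers all passed as lower in the same comparison at P40, and 5 of 12 RPE markers did. The part of cells carried over from the retina in these values was not tested.

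**Figure D4:**
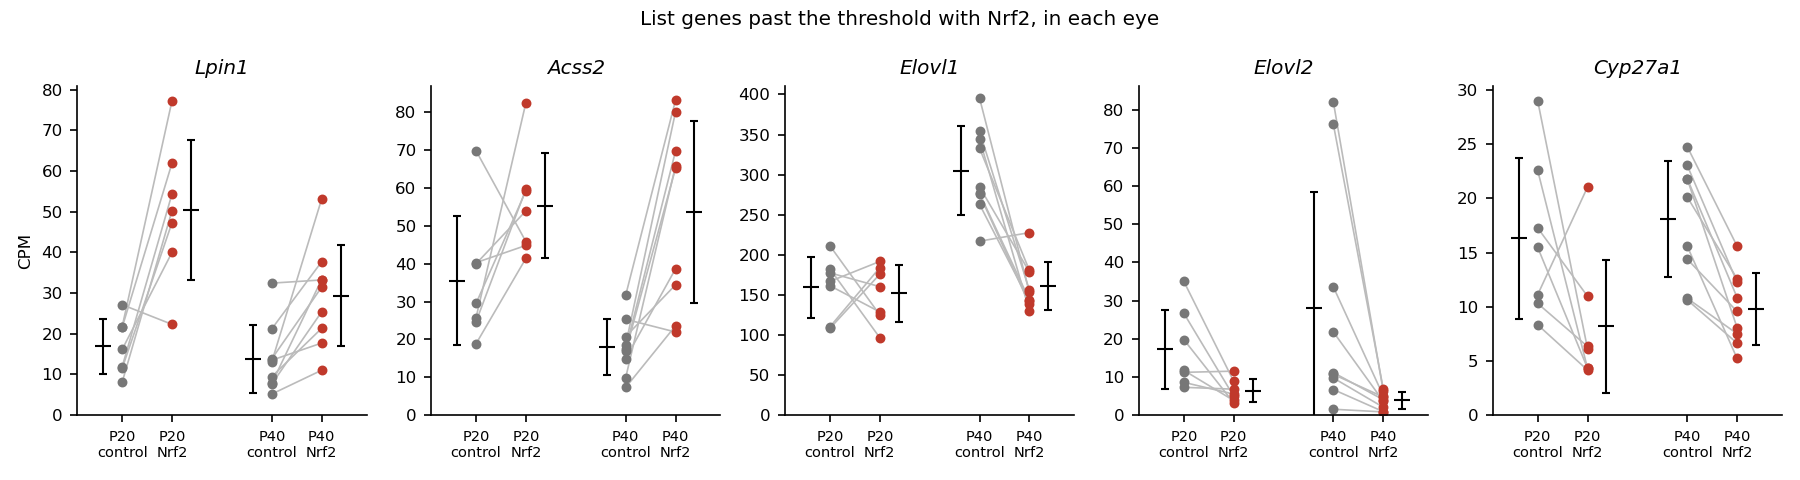
Level in every eye, in CPM, of the 5 list genes outside the 8 that passed the test with Nrf2 at P20 or P40. Points are eyes (gray, control; red, Nrf2), gray lines join the eyes of a mouse, and black marks are the mean ± SD; *Elovl2* and *Cyp27a1* were lower in the Nrf2 eye of all 9 mice at P40.

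None of 13 regulators passed the edgeR test with Nrf2 at either age, with 1 and 2 at an unadjusted *P* under 0.05, while DESeq2 called *Nr1h3* at P20 and limma voom called *Nr1h3* and *Srebf1* at P20. Of 18 genes of sterol uptake, transport, and efflux, none passed at P20 (5 at an unadjusted *P* under 0.05, with 3 called by DESeq2 and 5 by limma voom, which called 1951 and 2605 of all genes), and 1 of 17 tested fell at P40. This was *Cyp27a1*, the sterol 27-hydroxylase, with 10.6 to 24.8 CPM in control eyes (median 20.1) and 5.22 to 15.6 CPM in Nrf2 eyes (median 9.56). It was lower in the Nrf2 eye of 9 of 9 mice (−0.93 ± 0.16, adjusted *P* = 0.00511).

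Between P20 and P40, most of the 8 genes had lower levels at P40 in both kinds of eye. The comparison of ages is between different mice. All P20 libraries carry an M in their label and all P40 libraries an A, and the labels do not say what these letters mean. A change with age therefore cannot be told apart from a difference between these label series. In control eyes, 7 of the 8 log2 fold changes were negative (median −0.48, beside 0.00 for all genes), and *Srebf2* fell past the threshold, where 14.8% of 16832 genes passed. In Nrf2 eyes, 7 of 8 were negative (median −0.39, beside 0.02) and none passed, where 0.502% of 16745 genes did. There, 2 of the 8 had an unadjusted *P* under 0.05, as had 4326 of all genes, DESeq2 called none, and limma voom called *Hmgcs1* and *Srebf2* among 2213 genes.

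*Srebf2* ranged in control eyes from 145 to 220 CPM at P20 (median 179) and from 35.5 to 179.7 CPM at P40 (median 81.9), so the groups overlapped. Its log2 fold change was −0.90 ± 0.28 (adjusted *P* = 0.0402). This call was lost without P20 mice 3 and 4 (−0.95, adjusted *P* = 0.0996), and in 11 of 16 omissions of 1 eye, namely each of the 7 eyes at P20 and those of mice 2, 3, 5, and 7 at P40, with adjusted *P* values up to 0.0732 and log2 fold changes of −1.07 to −0.82. In Nrf2 eyes, *Srebf2* had −0.67 ± 0.29 (adjusted *P* = 0.161).

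The other members did not pass in control eyes. *Hmgcs1* had −0.58 ± 0.23 (adjusted *P* = 0.0828), *Sqle* −0.52 ± 0.24 (0.127), *Insig1* −0.44 ± 0.24 (0.196), *Fasn* −0.09 ± 0.19 (0.749), *Scd1* −0.42 ± 0.27 (0.280), and *Scd2* −0.57 ± 0.27 (0.146) on the log2 scale. Without P20 mice 3 and 4, *Scd1* had −0.16 (adjusted *P* = 0.691) and *Fasn* −0.19 (adjusted *P* = 0.604), and without the P20 control eye of mouse 3 alone *Scd1* had −0.12. *Srebf1* was the exception in direction, with 0.35 ± 0.22 (adjusted *P* = 0.259). In Nrf2 eyes, the corresponding log2 fold changes were −0.44 for *Hmgcs1*, −0.41 for *Sqle*, −0.27 for *Insig1*, −0.13 for *Fasn*, −0.36 for *Scd1*, −0.55 for *Scd2*, and 0.03 for *Srebf1*.

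Of 23 tested genes of fatty acid synthesis and desaturation, 1 rose and 1 fell with age in control eyes. These were *Elovl1* (0.96 ± 0.18, adjusted *P* = 0.00895) and *Acss2* (−0.95 ± 0.29, adjusted *P* = 0.0399). Of 13 regulators, 1 rose and 2 fell, *Srebf2* among them. *Mbtps1*, the protease that makes the first cut in the SREBPs, fell (−0.88 ± 0.22, adjusted *P* = 0.0263). *Nr1h3*, the sterol receptor LXRα, rose (0.86 ± 0.25, adjusted *P* = 0.0361). None of 18 genes of sterol uptake, transport, and efflux passed, where 14.8% of all 16832 genes did. The calls of *Acss2*, *Mbtps1*, and *Nr1h3* were lost without P20 mice 3 and 4 (adjusted *P* values of 0.0852, 0.0794, and 0.0712), and that of *Elovl1* was not (0.0439). Omitting single control eyes also ended the call of *Acss2* (P20 mice 1, 2, 3, 5, 6, and 7, and P40 mice 2, 3, 5, and 7, with adjusted *P* values up to 0.0846). The same held for *Mbtps1* (P20 mice 1, 3, 5, and 7, up to 0.0578) and for *Nr1h3* (P20 mice 1, 2, 3, 5, 6, and 7, and P40 mice 2, 3, and 5, up to 0.0728). None of the 21 genes of sterol synthesis passed in either kind of eye by edgeR, with 6 in each at an unadjusted *P* under 0.05, as had 5917 of 16832 genes in control and 4326 of 16745 in Nrf2 eyes. In control eyes, DESeq2 and limma voom each called *Ggps1* and *Pmvk* as higher. In Nrf2 eyes, DESeq2 called 3 of the 21 and limma voom 3, with *Mvd* in both.

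Whether the effect of Nrf2 differed between the ages was tested over all 32 libraries. None of the 8 genes passed, and none had an unadjusted *P* under 0.05 in edgeR, where 1 of 17959 genes (0.00557%) passed. DESeq2 and limma voom also called none of the 8. The differences on the log2 scale ran from −0.37 ± 0.23 for *Srebf1* to 0.26 ± 0.36 for *Srebf2* (−0.45 and 0.38 without P20 mice 3 and 4), and the 95% interval of *Scd1* was the widest.

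The differences of some of the 8 genes varied together from mouse to mouse, but their r with other genes was often high too, as given below. The share of pairs of other genes that would pass the same test was not computed. The Nrf2 minus control difference of each mouse, in log2 CPM, was correlated for each of the 28 pairs of genes over 16 mice and tested by permutation, and 8 pairs passed an adjusted *P* of 0.05, all of them positive. By rank correlation, 6 of these 8 also passed, and without the 2 mice farthest from the median of the first gene, 2 did. The 2 were *Hmgcs1* with *Sqle* and *Srebf2* with *Scd2*. Leaving out those mice also narrows the range of the first gene and lowers the number of mice. It therefore cannot show whether the other 6 pairs rested on those mice. The pairs that did not pass by rank were *Sqle* with *Insig1* and *Sqle* with *Srebf2* (permutation test of Spearman's rho, adjusted *P* = 0.0672 and 0.0512).

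For *Hmgcs1* and *Sqle*, Pearson's r was 0.91 (permutation *P* = 1e-05, the smallest that 100000 permutations give, adjusted *P* = 0.00028) and Spearman's rho 0.92 (permutation *P* = 1e-05, adjusted *P* = 0.00028). It was 0.95 at P20 and 0.91 at P40, and 0.89 without the 2 farthest mice. For *Srebf2* and *Scd2*, r was 0.86 (permutation *P* = 2e-05, adjusted *P* = 0.00028) and rho 0.83 (permutation *P* = 0.00011, adjusted *P* = 0.00154), with 0.50 at P20, 0.92 at P40, and 0.75 without the 2 farthest mice. These values lay above most of those with other genes, which were often high. Over 11793 genes, the r with *Hmgcs1* ran from −0.72 to 0.80 between the 5th and 95th percentiles, and that with *Srebf2* from −0.77 to 0.82.

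The remaining pairs past the threshold were *Sqle* with *Insig1* (r = 0.80), *Insig1* with *Srebf2* (0.77), *Hmgcs1* with *Insig1* (0.73), *Hmgcs1* with *Srebf2* (0.67), *Insig1* with *Scd2* (0.67), and *Sqle* with *Srebf2* (0.66). Without the 2 farthest mice they fell to 0.30 to 0.56. *Fasn*, *Srebf1*, and *Scd1* were in no such pair. Over 11793 genes, the 95th percentile of r was 0.78 with *Sqle*, 0.76 with *Insig1*, and 0.77 with *Scd2*. Of the remaining pairs, only *Sqle* with *Insig1* had an r above the 95th percentiles of both its genes. Tested within P40 alone, 4 pairs passed, and within P20 alone only *Hmgcs1* with *Sqle* reached the threshold (permutation test, adjusted *P* = 0.05). *Scd1* and *Scd2* had an r of 0.37 (permutation *P* = 0.162, adjusted *P* = 0.324) and a rho of 0.28 (permutation *P* = 0.294, adjusted *P* = 0.468), with −0.79 at P20 and 0.75 at P40. Within an age, the exact permutation test for this pair gave an adjusted *P* of 0.244 at P20 (n = 7) and 0.074 at P40 (n = 9).

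**Figure D5:**
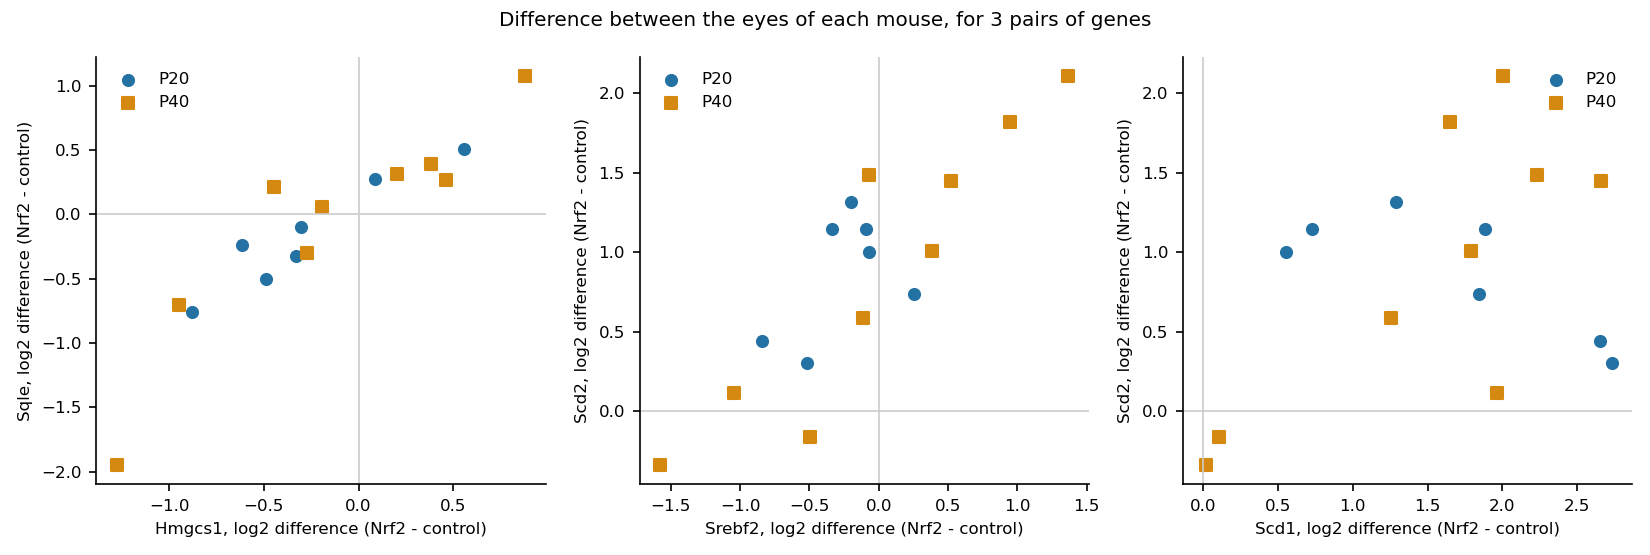
Difference between the Nrf2 and the control eye of each mouse, in log2 CPM, for *Hmgcs1* and *Sqle* (left), *Srebf2* and *Scd2* (middle), and *Scd1* and *Scd2* (right). Each point is a mouse (blue circles, P20; orange squares, P40), and r over 16 mice was 0.91, 0.86, and 0.37.

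The genes most like each of the 8 were found from log2 CPM, taken as deviations from the 4 group means over the 32 libraries, with no test. For *Hmgcs1* they were *Sqle* (r = 0.90) and the sterol synthesis enzymes *Cyp51* (0.90) and *Lss* (0.90). For *Srebf2* they were *Mon1b* (0.97), *Sema3f* (0.97), and *Hip1r* (0.97), for *Scd2* *Wwc1* (0.94), *Slc22a23* (0.94), and *Fam91a1* (0.93), and for *Scd1* *Mpdz* (0.79), *Dab2* (0.78), and *Lcp1* (0.76). For *Sqle* they were *Tapbp* (0.92), *Dhx32* (0.91), and *Xpnpep1* (0.91), and for *Insig1* *Phf13* (0.89), *Gnai2* (0.88), and *Prmt3* (0.88). For *Srebf1* they were *Atp6v0a1* (0.90), *Dcun1d4* (0.87), and *Gprc5b* (0.86), and for *Fasn* *Gm20431* (0.83), *Zbtb9* (0.82), and *Cptp* (0.82). A member of the 8 was among the 3 most alike only for *Hmgcs1*.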

How the data were processed

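RNA-seq was done on RPE RNA from both eyes of 16 mice. The deposited table holds whole numbers for 34453 genes, of which 4268 had no count in any library. The numbers were taken as estimated counts that the authors rounded, which the sources used here do not state. The submitters' processing notes name Salmon 0.9.1, and the methods the mm10 genome. Which counter made the table is not given in the sources used here, and the 2 sequencing runs are not assigned to libraries, so a run effect could not be fitted.

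Counts were tested with the quasi-likelihood test of edgeR 4.0.16 (TMM, filterByExpr) and Benjamini-Hochberg adjustment over all genes tested, with a threshold of 0.05. The mouse was a block in the Nrf2 comparisons and in the interaction over 32 libraries. The labels number the Nrf2 and control libraries of each age, and the methods pair the eyes of a mouse. Libraries of the same number were therefore taken as the eyes of the same mouse, which the labels do not state. The r between such eyes was over 0.1 in 3 of 7 mice at P20 and 3 of 9 at P40. At P20, deviations from the group means had a mean r of 0.0213 for eyes of the same mouse and −0.000519 for eyes of different mice. At P40, these were 0.0990 and −0.00632. Ages were compared without a block. CPM used TMM over all libraries, log2 differences a prior count of 2, and levels per kilobase the union of exons. Correlations were tested with 100000 permutations, or exactly within an age.

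The tests were checked on simulated data. DESeq2 1.42.0, limma 3.58.1 (voom with quality weights), other normalization, filters, blocks, and omissions of mice were alternatives. The 8 genes, the 4 lists, and the marker lists were chosen with earlier results of these data known. The text names every list gene past the threshold, *Acaca* and *Acly* whatever their test, and the 3 genes most like each of the 8 among those with a mean log2 CPM of at least 2. *Scd3* and genes called by DESeq2 or limma voom alone were named after their values were seen. Some genes of the lists are counted but not reported here by name. Low values depend on depth, and 3 counts were taken as the floor.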

Additional observations from a re-analysis of the deposited data

Results flagged for a closer look

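For each of the 8 genes, the highest and lowest eye of each of the 4 groups was compared with the rest of its group by Dixon's ratio, and 6 of 32 combinations stood apart. Chance alone gives about 1 in 20. In the Nrf2 eye of P20 mouse 2, *Insig1* was low at 141.5 CPM, with 253 in the next eye, and *Srebf2* was low at 85.4 CPM, with 143 in the next. In P40 mouse 3, *Srebf1* was high in both eyes, at 477 CPM in the Nrf2 eye (next 243) and at 355 CPM in the control eye (next 237). *Fasn* was high at 139.9 CPM in the control eye of P20 mouse 6 (next 92.1). *Scd1* was high at 40.7 CPM in the library labelled control of P20 mouse 3 (next 21.7), which also held 1098 CPM of the transgene.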

How the results depend on the processing

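Of the alternative values of single genes, 902 kept direction and side of the threshold, 64 lost a call, 9 gained one, and 48 changed sign. The cause of the changes below was not tested. At P20, the 556 genes past the threshold became 1951 with DESeq2, 2605 with limma voom, and 348 without a filter. Of the 8 genes, 1 in place of 2 passed without a filter and without P20 mice 3 and 4. The 3 list genes became 9 with DESeq2 and 14 with limma voom. At P40, 762 became 1380 with DESeq2 and 1327 with limma voom, 1 of the 8 became 2 with either, and 6 list genes became 10 with DESeq2. Between ages in control eyes, 2483 became 4372 with DESeq2, 3747 with limma voom, 914 without a filter, and 158 without P20 mice 3 and 4. The 1 member became 2 with limma voom and 0 without a filter or those mice, and the 5 list genes became 13, 10, 2, and 1 in the same order. In Nrf2 eyes, 84 became 1685, 2213, 31, and 20 in that order, 0 members became 2 with limma voom, and 0 list genes became 4 with DESeq2 and 14 with limma voom. The interaction's 1 gene became 12 with DESeq2.

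Without the replicate block, 1093 genes and 6 list genes passed at P20, and *Lpin1* lost its call at P40 (1.05, adjusted *P* = 0.0951). With a replicate block between the ages, which pairs different mice that share only a number, 59 genes, 0 members, and 0 list genes passed in control eyes and 3 genes in Nrf2 eyes. The block changed the sign of *Fasn* at P20 (−0.030 without it), *Acly* at P40 (−0.055 without it), *Scd1* in the interaction (0.074 without it), and *Srebf1* between ages in Nrf2 eyes (−0.051 with it).

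Other changes of sign on the log2 scale were *Fasn* at P20 without mice 3 and 4 (−0.14), *Srebf1* at P40 (−0.0027 with DESeq2, −0.0029 with RLE), *Sqle* (0.051) and *Srebf2* (0.032) at P40 with limma voom, *Fasn* between ages in control eyes (0.066) and *Srebf1* in Nrf2 eyes (−0.38) with limma voom, and in the interaction *Scd2* (−6.2e-05 with DESeq2, −0.00012 with RLE) and *Scd1* (0.62 with limma voom).

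Leaving out 1 mouse or eye at a time, the genes past the threshold ranged from 111 to 1999 at P20 (0 to 2 members, 0 to 12 list genes), 521 to 997 at P40 (1 member, 6 to 7 list genes), 473 to 4273 between ages in control eyes (0 to 2 members, 1 to 12 list genes), and 21 to 190 in Nrf2 eyes. Log2 fold changes that changed sign were *Fasn* (−0.060 to 0.14) at P20, *Acly* (−0.12 to 0.16), *Fasn* (−0.22 to 0.0024), *Sqle* (−0.23 to 0.11), *Srebf1* (−0.094 to 0.057), and *Srebf2* (−0.21 to 0.14) at P40, *Fasn* (−0.17 to 0.062) between ages in control and *Srebf1* (−0.23 to 0.11) in Nrf2 eyes, and *Hmgcs1* (−0.0065 to 0.29), *Scd1* (−0.31 to 0.054), *Scd2* (−0.13 to 0.14), and *Sqle* (−0.063 to 0.29) in the interaction. The number of correlated pairs was 8 also with a prior count of 0.5, with RLE, and without P20 mice 3 and 4, against 6 of them by rank and 2 without the 2 farthest mice.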
